A study of Mus musculus with 5 samples.

Results

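The genes of the T cell receptor complex and of the first signalling steps below it were compared between thymus without ZAS3 and wild-type thymus. The members were chosen by name, 35 gene symbols in all. All 35 had at least 1 probe among the 16504 genes that could be named, and 3 of them (Plcg1, Ubash3a and Dgkz) had 2. Hivep3 encodes ZAS3, a zinc finger DNA-binding protein with kappaB-like sites among its targets. Total RNA of whole thymus of ZAS3-null mice was hybridised in 2 colours against that of wild-type littermates matched for sex and age, at 6 to 8 weeks, on 5 arrays, each with 1 null and 1 wild-type RNA; whether an RNA came from 1 animal or a pool is not stated. The labels do not say how the null allele was made, nor give the strain, and the series design text speaks of thymocytes where the labels speak of whole thymus. There was 1 group of 5 ratios and no array with the same genotype in both channels.

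The T cell receptor recognises peptide on MHC molecules, but its antigen-binding chains carry no signalling domain of their own. They depend on the CD3 chains and the zeta chain, whose tails are phosphorylated and then bind the kinase Zap70. Zap70 phosphorylates the adaptors Lat and Lcp2 (SLP-76), on which phospholipase C gamma, Ras activation and the path to NF-kB are built. In the thymus the strength of this signal decides whether a thymocyte survives selection, and adhesion receptors, ubiquitin ligases and lipid kinases tune it.

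Each value is a log2 ratio of the channels of an array. Going by the titles and the channel numbers, positive ratios likely mean more RNA in the null thymus, but the labels and the design text disagree on the dyes, so signs are given in place of higher and lower. Dye and genotype cannot be told apart, because no array had the dyes swapped. In whole tissue, fewer T lineage cells and less RNA per cell cannot be told apart either. The table holds ratios only, so that no marker of thymus could be checked for its level or called absent, and the number of arrays limits the precision. Hivep3 itself had log2 ratios between -0.03 and 0.15 as deposited (mean 0.08 ± 0.07, limma adjusted p = 0.37). After the correction for slide position described next it was positive on 5 of 5 arrays, from 0.06 to 0.30, with a mean of 0.17 ± 0.09 that did not pass either (unadjusted p = 0.0299, limma adjusted p = 0.141). Where its probes lie relative to the deleted part is not given, so these values do not check the labels.

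The ratios rose along the columns of the slide for all genes alike, and the members lie scattered over those columns. The account below therefore gives each member's mean as deposited and again after position correction. In that correction a spot's local median, over a window of 21 by 21 spots on that array, was taken off. A gene was called when its adjusted p in limma, over all 20861 features, was under 0.05. As deposited, 11 of the 35 members were called, 3 positive and 8 negative. Of all named genes, 12.0% were called positive and 12.9% negative, 24.8% together. After position correction 0 of the 35 were called with limma, against 0.612% positive, 2.30% negative and 2.91% together for all named genes. At an unadjusted p under 0.05 the corrected fit held 10 of the 35 members (28.6%), near the 27.0% of all named genes.

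**Figure D1:**
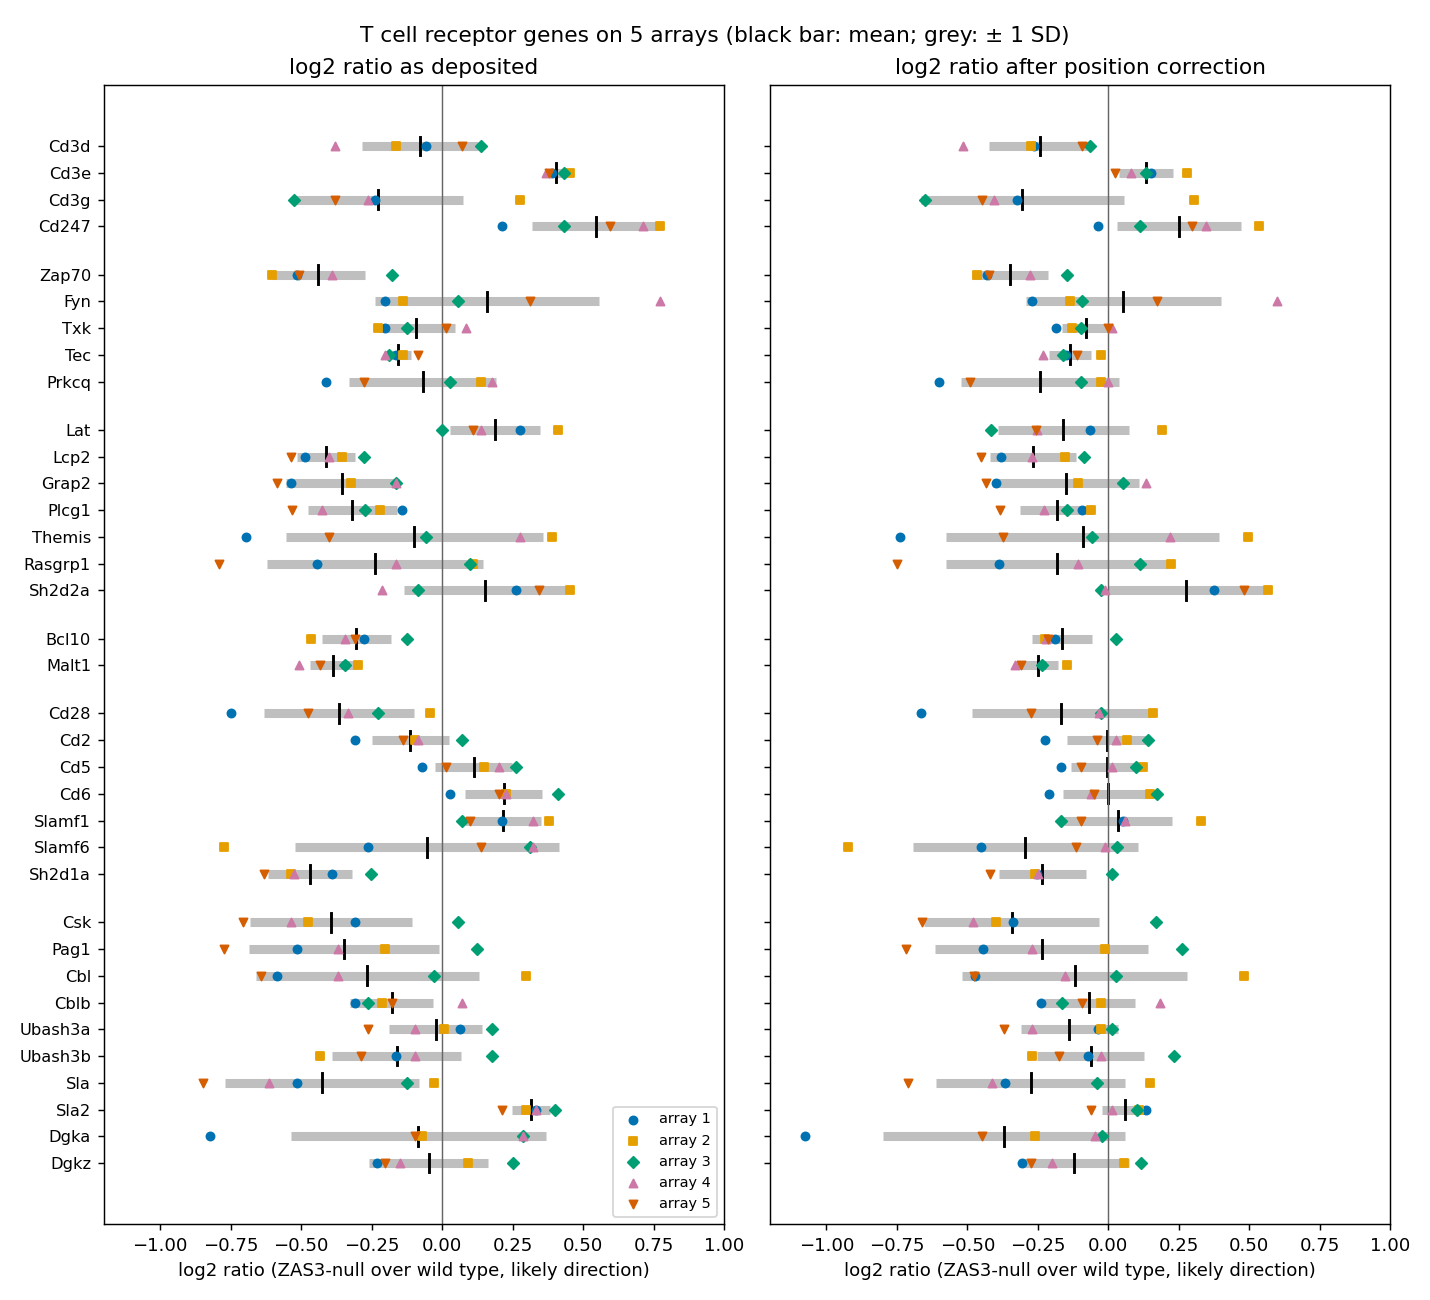
Log2 ratio of each of the 35 genes on each of 5 arrays, as deposited (left) and after position correction (right), in blocks by role from the receptor chains at the top to the inhibitors at the bottom. Coloured symbols are arrays, the black bar is the mean and the grey bar is 1 SD on each side; Cd3e is the tightest of the receptor chains as deposited, between 0.37 and 0.45.

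Of the receptor chains, Cd247 and Cd3e were positive past the threshold as deposited, and Cd3d and Cd3g were not called. Cd3d, Cd3e and Cd3g are neighbours on mouse chromosome 9, Cd3d and Cd3g being transcribed away from each other, while Cd247 lies on chromosome 1. The 250 bases before 1 start site of each chain are shown, as RefSeq gives them for GRCm38.p6. The Cd247 window lies inside its gene, which begins upstream at 165779952. The windows of Cd3d and Cd3e also reach into their genes, which begin at 44981769 and, on the minus strand, at 45009663. The marked letters of Cd3e lie in that shared part and those of Cd3d do not. No chain was called after position correction, and any link of these bases to the ratios was not tested. Bcl10 is added as the member with the most kappaB-like matches in 1 window. Capitals mark GGAAGT or its reverse complement in the 4 receptor genes (an Ets-like motif). For Bcl10 they mark GGG, any 5 bases and CC, or the reverse complement (a kappaB-like motif). In Bcl10, 2 of its 5 matches overlap.
Cd3g, chr9:44980432-44980681, minus strand: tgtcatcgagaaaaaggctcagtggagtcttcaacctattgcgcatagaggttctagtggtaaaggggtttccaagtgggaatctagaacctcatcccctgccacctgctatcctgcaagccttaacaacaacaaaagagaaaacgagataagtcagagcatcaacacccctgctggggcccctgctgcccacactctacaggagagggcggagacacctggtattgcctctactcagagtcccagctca
Cd3d, chr9:44981536-44981785, plus strand: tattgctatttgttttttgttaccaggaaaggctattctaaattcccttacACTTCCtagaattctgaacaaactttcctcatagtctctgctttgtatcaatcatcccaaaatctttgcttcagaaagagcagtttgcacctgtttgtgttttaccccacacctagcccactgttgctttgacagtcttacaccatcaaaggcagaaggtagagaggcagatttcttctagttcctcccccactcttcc
Cd3e, chr9:45009612-45009861, minus strand: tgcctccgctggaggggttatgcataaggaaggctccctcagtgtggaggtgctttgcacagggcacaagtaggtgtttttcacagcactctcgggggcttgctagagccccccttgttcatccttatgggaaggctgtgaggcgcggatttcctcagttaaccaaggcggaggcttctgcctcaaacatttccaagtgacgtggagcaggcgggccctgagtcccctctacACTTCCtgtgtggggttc
Cd247, chr1:165788431-165788680, plus strand: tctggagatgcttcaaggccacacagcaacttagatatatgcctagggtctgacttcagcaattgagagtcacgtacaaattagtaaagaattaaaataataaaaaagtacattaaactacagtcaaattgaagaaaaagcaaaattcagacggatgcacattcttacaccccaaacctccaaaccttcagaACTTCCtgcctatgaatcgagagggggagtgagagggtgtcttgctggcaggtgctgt
Bcl10, chr3:145924012-145924261, plus strand: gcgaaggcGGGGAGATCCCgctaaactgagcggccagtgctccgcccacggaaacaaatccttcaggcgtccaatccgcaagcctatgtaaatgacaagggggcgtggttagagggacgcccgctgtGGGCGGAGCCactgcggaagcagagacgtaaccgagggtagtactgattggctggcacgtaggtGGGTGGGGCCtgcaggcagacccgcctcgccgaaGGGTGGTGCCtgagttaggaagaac

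The table of promoters held 37 start sites of 27 members, chromosome 18 aside. The kappaB-like letters were in 17 of these 37 windows (45.9%) on either strand, and in 45.8% of the 32851 windows of all genes. The Ets-like letters were in 10 of 37 (27.0%) and in 19.7% of all windows. None of the 4 receptor chain windows printed here held the kappaB-like letters, and Cd3g held neither motif. These are matches of letters and not measured binding.

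Cd3e, the epsilon chain that pairs with both other CD3 chains, had log2 ratios of 0.39, 0.45, 0.43, 0.37 and 0.38 on arrays 1 to 5. All 5 arrays lay within 0.09 of one another, the tightest of the 35 members. Its mean was 0.40 ± 0.04 (SD, n = 5; 1.32-fold; limma adjusted p = 0.00675), and it was the 1 member called in every fit that left out an array (adjusted p up to 0.043). The Cd3e probe lay in column 101, where the ratios of all genes were high. After position correction its values were 0.15, 0.28, 0.13, 0.08 and 0.02, still positive on 5 of 5 arrays, with a mean of 0.13 ± 0.10 (adjusted p = 0.221).

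Cd247, the zeta chain, had 0.21, 0.77, 0.43, 0.71 and 0.59 as deposited. Every array was positive and array 1 was the lowest. The mean of 0.55 ± 0.23 (1.46-fold; limma adjusted p = 0.0123) ranked 276 from the top of the 16504 genes and was the largest of the 35 members. Leaving out array 4 or array 5 ended the call (adjusted p up to 0.0589). Corrected values were -0.04, 0.54, 0.11, 0.35 and 0.30, with a mean of 0.25 ± 0.22 (adjusted p = 0.147), and the probe lay in column 93.

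Cd3d, the delta chain, had -0.06, -0.16, 0.14, -0.38 and 0.07, a mean of -0.08 ± 0.20 (limma adjusted p = 0.544). Its signs were mixed as deposited, but all 5 arrays were negative after position correction, at -0.26, -0.27, -0.06, -0.52 and -0.09. That corrected mean was -0.24 ± 0.18 (adjusted p = 0.125). Cd3g, the gamma chain, had -0.24, 0.28, -0.53, -0.26 and -0.38, with array 2 alone positive. Its mean was -0.23 ± 0.30 (adjusted p = 0.202), and -0.31 ± 0.36 after correction (adjusted p = 0.199). Without array 2 Cd3g passed with a negative ratio, at -0.35 as deposited (adjusted p = 0.0202) and -0.46 after correction (0.0242). The means of the 4 chains thus did not share a sign, before or after the correction, but the negative means of Cd3d and Cd3g were not called over the 5 arrays.

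**Figure D2:**
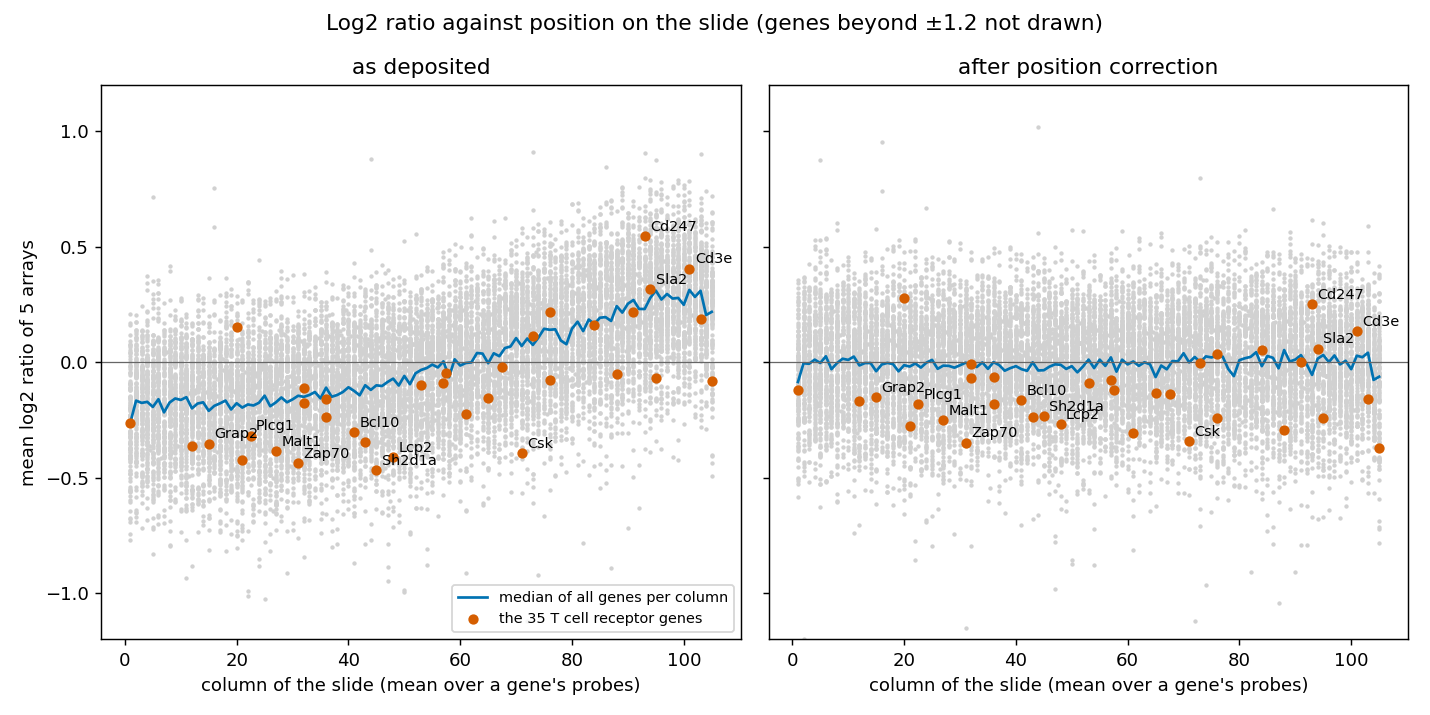
Mean log2 ratio of 5 arrays (vertical axis) against the column of the slide (horizontal axis), as deposited (left) and after position correction (right). Grey points are all named genes, the blue line is their median per column, and orange points are the 35 T cell receptor genes, with the 11 called as deposited named; the positive calls lie in columns 93 to 101 and no negative one lies beyond column 71.

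The deposited means of the members rose along the columns of the slide, as did those of other genes. Across the 35 members the mean log2 ratio as deposited correlated with the column at r = 0.69 (Spearman 0.70), and across all named genes at r = 0.59 (0.60). Genes are not independent replicates, and neighbouring spots share the trend. Of the 13 members beyond column 70, 3 were called positive and 1 (Csk) negative, where 1698 of the 5267 named genes of those columns were positive and 62 negative. Among the 10 whose probes lay between columns 1 and 35, limma called 4 negative and 0 positive, beside 1381 negative and 15 positive of 5397 named genes there. Of the 12 with a mean column of 36 to 70, 3 were called negative and 0 positive, beside 679 and 260 of 5833 named genes. From the first to the last of these column ranges, the median of the deposited member means was -0.34, -0.19 and 0.16. For all named genes it was higher in each range, at -0.18, -0.05 and 0.20. After position correction the correlation was 0.13 over the members and 0.02 over all named genes.

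Of the 5 kinases that act at the receptor, Zap70 was called and Fyn, Txk, Tec and Prkcq were not. Zap70 had -0.52, -0.60, -0.18, -0.39 and -0.51 on arrays 1 to 5. All arrays were negative and array 3 was the weakest. The mean was -0.44 ± 0.17 (1.36-fold; limma adjusted p = 0.0128), lost without array 5 (adjusted p = 0.062). After position correction the values were -0.43, -0.47, -0.15, -0.28 and -0.42, again all negative, with a mean of -0.35 ± 0.13. Its corrected adjusted p was 0.05001, just above the threshold and the smallest of the 35. Zap70 passed after correction with windows of 11 by 11 or 41 by 41 spots, with column and row medians, with scaled arrays, with named genes only and with array weights. It did not pass in any corrected fit that left out an array (adjusted p 0.0519 to 0.21).

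Tec, a kinase that activates phospholipase C gamma, lay close to 0 on every array, from -0.20 to -0.08 (mean -0.16 ± 0.05; limma adjusted p = 0.0858), and was again negative on all 5 after correction (-0.14 ± 0.07; 0.196). Txk, a relative of Tec, had a mean of -0.09 ± 0.14 as deposited and -0.08 ± 0.09 after correction. Prkcq, the protein kinase C theta that links the receptor to NF-kB, had -0.07 ± 0.26 as deposited, with 3 arrays positive. After correction Prkcq had 0 arrays positive and 4 negative, and a mean of -0.24 ± 0.28 (limma adjusted p = 0.208). Fyn, a Src family kinase that phosphorylates the CD3 chains, was spread more widely, from -0.20 on array 1 to 0.77 on array 4 (mean 0.16 ± 0.40; adjusted p = 0.454). The corrected mean of Fyn was 0.05 ± 0.34, and its 95% confidence interval ran from -0.26 to 0.37, so changes of up to 1.29-fold on the positive side are not resolved by these arrays.

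Among the adaptors and effectors, Lcp2, Grap2 and Plcg1 were negative past the threshold as deposited, while Lat, Themis, Rasgrp1 and Sh2d2a were not called. Lcp2, the SLP-76 scaffold, had -0.49, -0.36, -0.28, -0.40 and -0.54, a mean of -0.41 ± 0.10 (1.33-fold; limma adjusted p = 0.00945) that was lost without array 5 (0.0528). All 5 arrays remained negative after correction, between -0.45 and -0.09, with a mean of -0.27 ± 0.15 (adjusted p = 0.0872). Grap2 (Gads), which joins Lcp2 to Lat, had -0.54, -0.32, -0.16, -0.16 and -0.58. Its mean of -0.35 ± 0.20 (adjusted p = 0.0322) became -0.15 ± 0.26 after correction (adjusted p = 0.375), with arrays 3 and 4 then positive. Grap2 was no longer called once array 1, 4 or 5 was left out (adjusted p up to 0.114).

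Plcg1, the phospholipase that makes diacylglycerol and inositol trisphosphate, had -0.14, -0.22, -0.27, -0.42 and -0.53. No array was positive. The mean over its 2 probes was -0.32 ± 0.16 (limma adjusted p = 0.0293), lost without array 3, 4 or 5 (up to 0.107). The probes had the same sign, -0.26 in column 33 and -0.38 in column 12, and after correction -0.19 and -0.17. The corrected mean was -0.18 ± 0.13 (adjusted p = 0.154), with all arrays negative.

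Lat, the membrane adaptor that Zap70 phosphorylates, had 0.28, 0.41, 0.00, 0.14 and 0.11 as deposited, a mean of 0.19 ± 0.16 (limma adjusted p = 0.121). Its probe lay in column 103, and the correction turned the sign of the mean to -0.16 ± 0.23 (adjusted p = 0.319). Neither value was called, so no direction can be given for Lat. Themis, needed for positive selection of thymocytes, had opposite signs on different arrays, from -0.70 on array 1 to 0.39 on array 2, with a mean of -0.10 ± 0.45 as deposited and -0.09 ± 0.48 after correction. Rasgrp1, which activates Ras in response to diacylglycerol, ranged from -0.79 on array 5 to 0.11 on array 2 as deposited, with means of -0.24 ± 0.38 before and -0.18 ± 0.39 after correction. Both genes thus kept their spread of signs. Sh2d2a, the T cell-specific adaptor, had 0.15 ± 0.29 as deposited and the largest corrected mean of the 35, 0.28 ± 0.28 (adjusted p = 0.166), with corrected values of -0.03 and -0.01 on arrays 3 and 4 and 0.37 to 0.57 on the others.

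Bcl10 and Malt1, which carry the signal from protein kinase C theta towards NF-kB, were both negative past the threshold as deposited. Malt1, the protease of the pair, had -0.34, -0.30, -0.34, -0.51 and -0.43, a mean of -0.39 ± 0.08 (1.31-fold; limma adjusted p = 0.00947), lost without array 5 (0.0544). Corrected, the values lay between -0.33 and -0.15 on all 5 arrays, and the mean of -0.25 ± 0.07 had an adjusted p of 0.0646. Malt1 passed after correction without array 2 (-0.28, adjusted p = 0.0473), with column and row medians and with array weights. Bcl10, its adaptor partner, had -0.28, -0.46, -0.12, -0.34 and -0.31, a mean of -0.30 ± 0.12 (adjusted p = 0.0241), lost without array 1, 4 or 5 (up to 0.0933). After correction the mean was -0.16 ± 0.11 (adjusted p = 0.165).

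**Figure D3:**
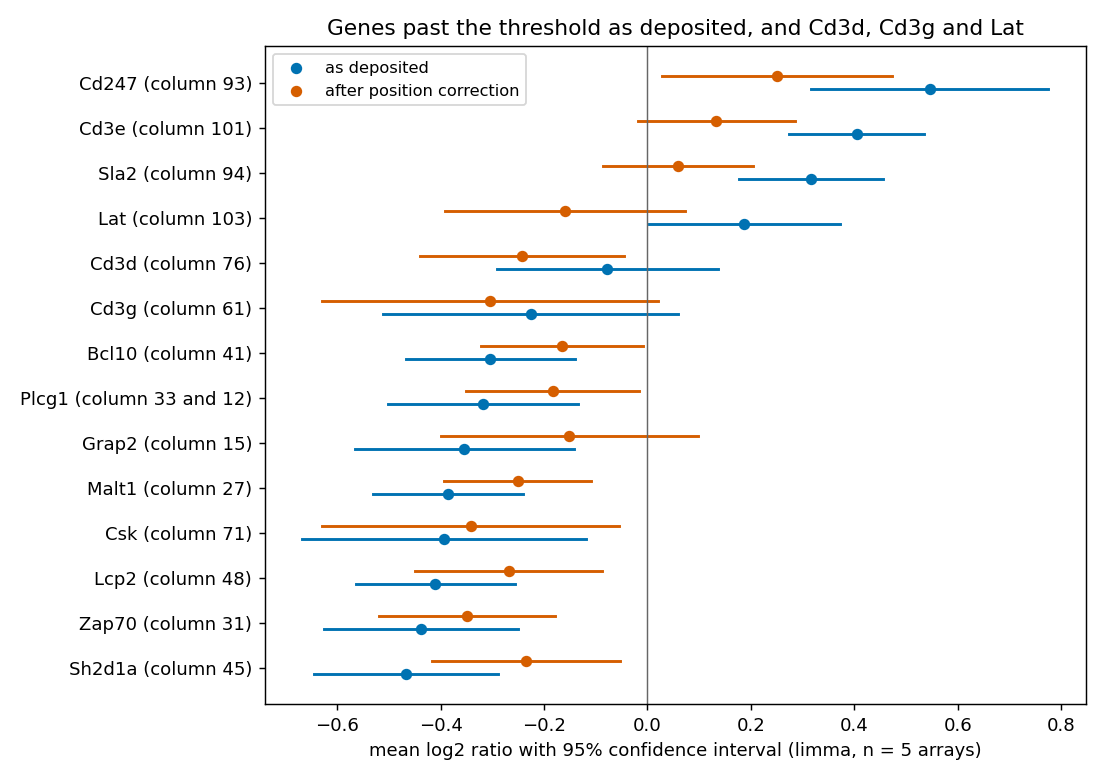
Mean log2 ratio with its 95% confidence interval from limma (horizontal axis, n = 5 arrays) for the 11 genes called as deposited and for Cd3d, Cd3g and Lat, in blue as deposited and in orange after position correction. The slide column of each probe stands beside the gene; Cd3e in column 101 moved from 0.40 to 0.13 and Malt1 in column 27 from -0.39 to -0.25, while Csk in column 71 moved little, from -0.39 to -0.34, and Cd3g in column 61 moved away from 0, from -0.23 to -0.31.

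Of the 7 surface receptors and Slam family genes, 1 was called. Sh2d1a encodes SAP, the small adaptor that couples Slam receptors to Fyn, and had the lowest mean of the 35 members as deposited. Its values were -0.39, -0.54, -0.25, -0.53 and -0.63, a mean of -0.47 ± 0.15 (1.38-fold; limma adjusted p = 0.00984), lost without array 5 (0.052). After correction array 3 was at 0.01 and the others between -0.42 and -0.25, with a mean of -0.23 ± 0.15 (adjusted p = 0.115). The Slam receptors it serves were not called. Slamf1 was positive on all arrays as deposited (0.22 ± 0.13) and had 0.03 ± 0.19 after correction. Slamf6 ran from -0.77 on array 2 to 0.32 on array 4 as deposited (mean -0.05 ± 0.47), and its corrected mean was -0.29 ± 0.40 (limma adjusted p = 0.243), with array 2 at -0.92.

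Cd28, the costimulatory receptor, had -0.75, -0.04, -0.23, -0.33 and -0.48, all negative. Its mean of -0.37 ± 0.27 just missed the threshold (limma adjusted p = 0.0512) and lay in column 12 of the slide; corrected, it was -0.17 ± 0.32 (adjusted p = 0.4). Without array 2 Cd28 passed as deposited (adjusted p = 0.0224). Cd5 and Cd6, related scavenger-type receptors that dampen receptor signals, had 0.11 ± 0.14 and 0.22 ± 0.14 as deposited, and -0.01 ± 0.12 and 0.00 ± 0.16 after correction. Cd2, an adhesion receptor, had -0.11 ± 0.14 as deposited and -0.01 ± 0.14 after correction. For Cd2, Cd5 and Cd6 the corrected 95% confidence intervals lay between -0.18 and 0.19, which leaves room for changes of up to 1.14-fold.

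Of the 10 inhibitors of the pathway, Csk was called negative and Sla2 positive as deposited, and 9 of the 10 deposited means were below 0, as were 53.7% of those of all named genes. Csk, the kinase that switches off Lck and Fyn, had -0.31, -0.48, 0.06, -0.54 and -0.70. Array 3 stood alone above 0. The mean of -0.39 ± 0.29 (1.31-fold; limma adjusted p = 0.0493) was barely past the threshold, and leaving out array 1, 2, 4 or 5 ended the call (up to 0.152), as did median centring or scaling of the arrays. The correction moved Csk, in column 71, little, to a mean of -0.34 ± 0.31 (adjusted p = 0.132). Pag1, the membrane protein that recruits Csk, was likewise highest on array 3, at 0.12, and lowest on array 5, at -0.77 (mean -0.35 ± 0.34; adjusted p = 0.0961, and 0.0467 without array 3). The corrected mean of Pag1 was -0.24 ± 0.38.

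Sla2 and Sla encode SLAP adaptors, which help Cbl remove receptors from the surface, and had opposite signs as deposited. Sla2 had 0.33, 0.30, 0.40, 0.33 and 0.21, a mean of 0.32 ± 0.07 (1.24-fold; limma adjusted p = 0.0135), lost without array 4 or 5 (up to 0.0561). Its probe lay in column 94 and the corrected mean was 0.06 ± 0.08 (adjusted p = 0.55). Sla lay in column 21 and ranged from -0.85 on array 5 to -0.03 on array 2 (mean -0.43 ± 0.34; adjusted p = 0.0584), with a corrected mean of -0.28 ± 0.34. Without array 2 it passed as deposited (adjusted p = 0.025).

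The ubiquitin ligases Cbl and Cblb had deposited means of -0.26 ± 0.40 and -0.18 ± 0.15, and corrected means of -0.12 and -0.07. Cbl was positive on array 2 (0.30) and passed as deposited without it (limma adjusted p = 0.0423). Ubash3a and Ubash3b, which encode phosphatases that act on Zap70, had deposited means of -0.02 ± 0.17 and -0.16 ± 0.23, and corrected means of -0.14 ± 0.17 and -0.06 ± 0.19. The probes of Ubash3a disagreed in sign as deposited, with 0.18 in column 80 and -0.22 in column 55, and so did those of Dgkz, with 0.12 in the last column and -0.22 in column 10. After correction the probes of Ubash3a still differed in sign, at 0.01 and -0.29, and those of Dgkz had -0.16 and -0.08. The mean of Dgkz was -0.05 ± 0.21 as deposited and -0.12 ± 0.19 after correction. Dgka and Dgkz consume diacylglycerol and so limit Rasgrp1. Dgka had -0.08 ± 0.45 as deposited, with arrays 3 and 4 both at 0.29. Its corrected mean was the lowest of the 35, -0.37 ± 0.43 (adjusted p = 0.186), and array 1 was at -1.07 against -0.45 to -0.02 on the other arrays.

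The size of the ratios was small throughout. The study's own rule of 1.5-fold on at least 4 arrays was met by 0 of the 35 members, as deposited and corrected, against 0.866% and 0.242% of all named genes. As deposited 10 members were negative and 5 positive on all 5 arrays (20.5% and 16.7% of all named genes), and after correction 7 and 1 (14.5% and 11.7%). The median of the 35 means was -0.11 as deposited and -0.15 after correction, beside -0.03 and -0.01 for all named genes. As deposited 26 of the 35 means (74.3%) were below 0, and after correction 28 (80.0%), against 53.7% and 51.6% for all named genes. These last figures describe the list and carry no test.

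The members varied among the arrays. Their mean after position correction was -0.27, 0.01, -0.03, -0.10 and -0.25 on arrays 1 to 5, so arrays 1 and 5 were low and arrays 2 and 3 near 0. On arrays 1 and 5, 31 and 30 of the 35 members were below 0, and on arrays 2 and 3, 19 and 18. In a count chosen after seeing these values, 12 of the 35 had both array 1 and array 5 below arrays 2, 3 and 4, against 16.5% of all named genes (as deposited 13 of 35, against 12.7%). The 12 were Lcp2, Cd28, Cd5, Grap2, Themis, Rasgrp1, Cd2, Prkcq, Cbl, Pag1, Dgka and Dgkz. None of the 4 receptor chains was among them. The pattern was not particular to these genes. Of the 42 other receptor pathway genes described below, 15 (35.7%) had it after correction and 13 (31.0%) as deposited.

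Genes listed as markers of CD4+CD8+ thymocytes, the most abundant cells of the thymus, had a mean that was low on the same arrays. Their mean over 7 genes (Rag1, Rag2, Cd4, Cd8a, Cd8b1, Dntt and Ptcra) was -0.42, 0.11, -0.13, -0.27 and -0.35 on arrays 1 to 5 after correction. Whether each listed gene, Ptcra among them, is limited to these cells was not checked. Of the 7, 4 (Rag1, Rag2, Cd8a and Cd8b1) had both array 1 and array 5 below the other arrays. Dntt was lowest on array 3 (-0.52) and Cd4 on array 4 (-0.30), while Ptcra was positive on all 5 arrays, from 0.23 to 0.60. As deposited 4 of these 7 were called negative and Ptcra positive, beside 12.9% and 12.0% of all named genes. After correction 0 of 7 were called with limma, beside 2.91% of all named genes. The B cell markers measured (4 of 5) had means of 0.04, 0.14, 0.10, 0.30 and 0.25. As deposited 3 of them were called positive and Cd22 negative, beside the same 12.0% and 12.9%, and after correction 0 were called. Thymic epithelium markers (5 of 5) had 0.27, 0.11, 0.30, 0.25 and 0.09. The erythroid markers measured (2 of 4) had 0.23, 1.46, -0.13, -0.33 and -0.82, which sets array 2 apart. Of all these markers, Foxn1 of the epithelium (0.56 ± 0.16, limma adjusted p = 0.0135) and Il7r of mature T cells (-0.50 ± 0.11, adjusted p = 0.011) were called after correction. Macrophage markers (3 of 5) had -0.27, -0.28, 0.01, -0.08 and -0.23. They did not share a sign, with corrected means of -0.56 for Lyz2, -0.10 for Itgam and 0.14 for Adgre1. Markers of mature T cells (4 of 5) lay between -0.32 and -0.03, and those of stroma and endothelium (5 of 5) between -0.10 and 0.14. The part of these cell types in the T cell receptor values was not tested.

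**Figure D4:**
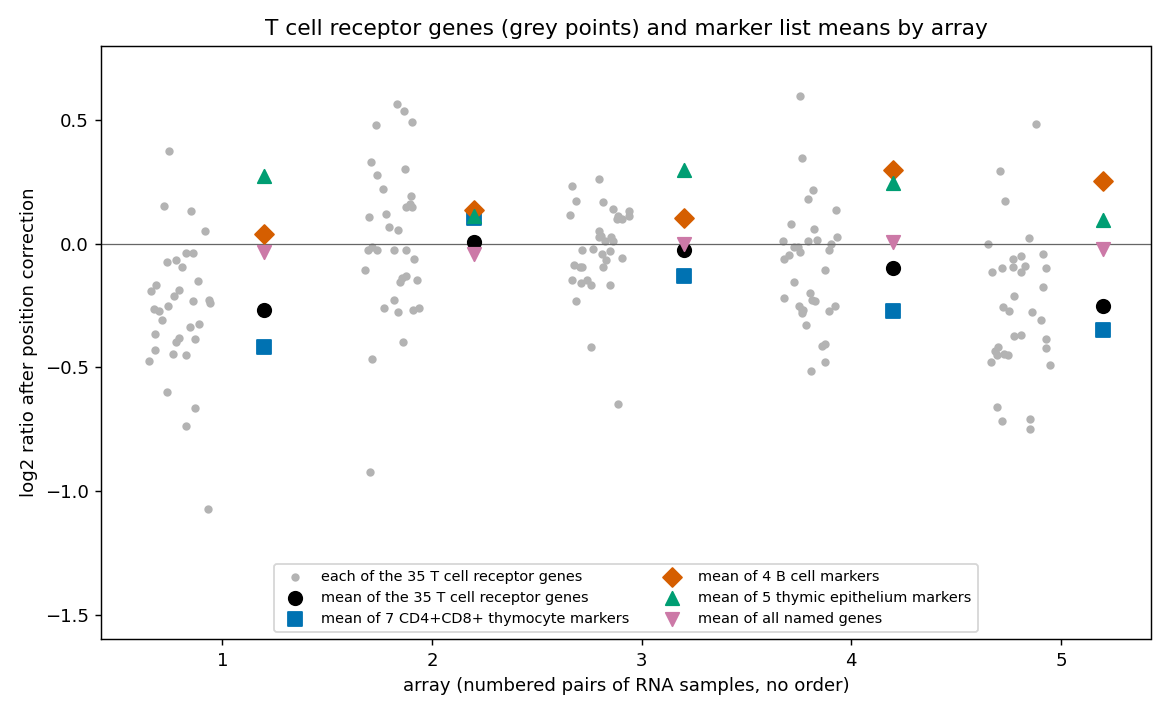
Log2 ratio after position correction (vertical axis) on each of the 5 arrays (horizontal axis), which are separately numbered pairs of RNA samples in no order. Grey points are the 35 T cell receptor genes and the larger symbols are means of those genes, of 3 marker lists and of all named genes; the T cell receptor and CD4+CD8+ thymocyte means are lowest on arrays 1 and 5.

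Other genes of the receptor pathway were taken from a list of 50, of which 42 had a probe with 1 gene name. As deposited 4 of the 42 were called positive and 11 negative, against 12.0% and 12.9% of all named genes. After correction 0 were positive and 2 negative, against 0.612% and 2.30%. Both genes called after correction were also called before it. Vav1, an exchange factor for Rac that binds Lcp2, had corrected values of -0.74, -0.36, -0.52, -0.59 and -0.67, and Ptpn22, a phosphatase that acts on Lck and Zap70, had -0.64, -0.61, -0.48, -0.33 and -0.33. Their corrected means were -0.58 ± 0.15 (limma adjusted p = 0.00975) and -0.48 ± 0.15 (0.0249), each below the lowest mean of the 35 members. Leaving out array 4 or 5 ended both corrected calls (adjusted p up to 0.0743 for Vav1 and 0.0862 for Ptpn22). Leaving out array 1 or 3 also ended that of Ptpn22 (up to 0.0928).

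Was, the actin regulator recruited by way of Lcp2, had a mean of 0.22 ± 0.08 as deposited (limma adjusted p = 0.0379) and 0.29 ± 0.10 after correction (0.0579), positive on 5 of 5 arrays. Trat1, a transmembrane adaptor that associates with the receptor, had -0.45 ± 0.25 after correction (adjusted p = 0.0607) and was negative on 5 of 5. Lax1, an inhibitory membrane adaptor, had 0.43 ± 0.18 as deposited (0.0147) in column 103 and 0.13 ± 0.23 after correction (0.401). Cd8a, the co-receptor that brings Lck to the complex, had -0.50 ± 0.23 as deposited (0.0155) and -0.33 ± 0.27 after correction (0.114). The deposited call of Cd8a was lost without array 4 or 5, that of Lax1 without array 5, and that of Was without any 1 of the 5 arrays.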

How the data were processed

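The deposited table holds log2 ratios of the 2 channels of an array, made by the authors. GenePix read the images and GeneTraffic 2.6 applied global lowess normalization without spots flagged as dim, per the labels' design text. Of the values, 100% were the log2 of a fold with 2 decimals within 6e-05. Spot brightness was not analysed here and no filter on dim spots was possible.

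Gene names rest on an order of the 22575 spots with rows and columns exchanged, found from earlier results of these data. In it 256 of 256 spots below -1.5 on every array fell on no named gene, against 41 by deposited numbers. The first 2 probes of a gene correlated at 0.13, against -0.06, over 1193 and 1161 genes. Both checks use the data from which the order was found, so neither is independent of it. A correlation of 0.13 between probes of a gene is also low. A gene's probes were averaged per array.

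limma 3.58.1 (R 4.3.3), with an intercept alone, tested the mean of the 5 arrays against 0 for every feature, with Benjamini-Hochberg adjustment over 20861 features. The steps were tested on simulated data. Nothing in the labels separates animal from technical spread, or says whether the 5 arrays hold separate animals. The p-values thus cover the spread among arrays, whatever its source. They do not allow for a dye or position bias shared by all 5 arrays. Values are mean ± SD. Every array's values are given for members called in either fit and for Cd3d, Cd3e, Cd3g, Cd247, Zap70, Lat and Lcp2. Of the other pathway genes, those called in both fits and the 4 with the smallest p of each fit are named. The members, lists and tests were chosen with earlier results of these data known. Promoter sequences are those of RefSeq (GRCm38.p6) and 27 of the 35 members matched by symbol. Alternatives were other windows, column and row medians, deposited numbers, centring, scaling, single probes, named genes only, robust eBayes, array weights, other thresholds and each array left out.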

Additional observations from a re-analysis of the deposited data

Results flagged for a closer look

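Of 70 groups of 5 values examined (35 genes, as deposited and corrected), 1 held a value far from the others. Bcl10 after position correction was 0.0263 on array 3, and between -0.23 and -0.19 on the other arrays. The gap was 0.861 of the whole range, above the limit of 0.71 that chance passes in about 1 in 20 groups. As deposited, array 3 was also the highest for Bcl10, at -0.12.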

How the results depend on the processing

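Each array sets 1 ZAS3-null against 1 wild-type sample, so the test of the ratios against 0 is already a paired comparison. There is 1 group, and no further pairing was possible. The count of members called as deposited (11) was 17 with array weights, 4 and 17 at adjusted p thresholds of 0.01 and 0.1, and between 1 and 14 with an array left out, the lowest without array 5 and 5 without array 4. After position correction the count of members (0) was 8 with array weights (Cd3g, Zap70, Lcp2, Plcg1, Csk, Sh2d1a, Malt1 and Sla, all negative), 3 at a threshold of 0.1, 2 with column and row medians, 2 with deposited numbers (which put other genes under these names), 1 each with scaled arrays, named genes only, an 11 by 11 and a 41 by 41 window, and between 0 and 2 with an array left out. The weights gave array 5 the most (2.30) and array 2 the least (0.327). For none of the alternatives in this section was the share of all named genes called worked out. The counts of members under them therefore cannot be read as particular to these genes. Other pathway genes called as deposited (15) were 2 and 24 at the 2 thresholds and between 2 and 13 with an array left out, with 6, 3 and 2 without arrays 1, 4 and 5. Corrected (2), they were 9 with array weights, 1 with deposited numbers, 1 and 5 at the 2 thresholds, and between 0 and 3 with an array left out. Of the members, 4 reached 1.3-fold on 4 arrays as deposited, and between 0 and 1 reached 1.5-fold on 3 arrays with 1 left out. Of 378 single-gene comparisons with an alternative, 318 kept sign and side of the threshold. The 16 reversals all came from deposited numbers: as deposited, Cd3e -1.49, Cd3g 0.0154, Cd247 -0.43, Zap70 0.47, Lat -0.32, Csk 0.12, Sh2d1a 0.16, Malt1 0.39 and Sla2 -0.14, and corrected, Cd3e -1.51, Cd3g 0.13, Cd247 -0.25, Zap70 0.25, Csk 0.0815, Malt1 0.22 and Sla2 -0.10. Apart from the deposited numbers, the cause of these changes was not tested. Spot brightness was not used here, so no limit from dim signal can be given.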
